A study of Arabidopsis thaliana with 8 samples.

Results

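Mutant seedlings for the transcription factor HY5 were compared directly with double mutant seedlings for the cryptochromes CRY1 and CRY2, using the 2 hy5 libraries and the 2 cry1 cry2 libraries, which are 4 of the 8 RNA sequencing libraries of the study. All libraries were prepared from entire Arabidopsis thaliana seedlings in the Col-0 background, and the other 4 were made from wild type (WT) and from the agb1 mutant (allele agb1-2). The labels name neither the hy5 allele nor the alleles of the double mutant. Every genotype was grown alike: after 3 days at 4 degrees C the seeds, on a medium holding 1% sucrose, received 12 h of white light followed by 4.5 days of blue light. The labels call the 2 libraries of a genotype biological replicates without saying whether the seedlings came from separate plantings, so p-values measure the spread between these libraries. WT did not enter the direct contrast; it was used to say which mutant stood away from WT at a gene whose direct difference had passed its own test.

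Cryptochromes are blue-light receptors. When activated by light they bind and restrain the ubiquitin ligase formed by COP1 and SPA proteins, which in darkness marks HY5 and other factors for degradation. HY5, a transcription factor of the bZIP class, binds DNA elements with an ACGT core and promotes greening, flavonoid synthesis and short hypocotyls. Cryptochromes also act on factors other than HY5, among them the PIF and CIB proteins, and HY5 is also reached by signals from phytochromes and the UV-B receptor, so the transcripts that depend on the receptors and on HY5 need not be the same.

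Levels are given as CPM, read counts scaled to library size after TMM normalisation, and a log2 difference is always cry1 cry2 minus hy5 unless WT is named, with its standard error. The 4 libraries held 15794472 to 20072882 counted reads, and 20695 of 27628 loci had enough reads to be tested. HY5 (AT5G11260) had 13.96 and 14.9 CPM in hy5, 16.3 and 18.9 in cry1 cry2 and 15.9 and 14.9 in WT, so a HY5 transcript was present in the libraries labelled hy5 and its level does not check that label. The small direct difference at HY5 (log2 difference 0.28 ± 0.10, adjusted p = 0.0221) was lost with DESeq2 (0.28, adjusted p = 0.144), without hy5 replicate 1 (0.23, adjusted p = 0.128) and without cry1 cry2 replicate 2 (0.18, adjusted p = 0.284). CRY1 (AT4G08920) had 203 and 196 CPM in hy5 and 82.4 and 78.01 in cry1 cry2, and its lower level in cry1 cry2 passed the test (log2 difference -1.31 ± 0.06, adjusted p = 3.94e-18). CRY2 (AT1G04400; in TAIR10.1 on chromosome 1 from base 1185512 to base 1188696) was covered by 3924 and 4456 reads in hy5 and 3 and 4 reads in cry1 cry2, or 0.0861% (95% exact Poisson interval 0.0346% to 0.177%) of the hy5 level, the interval covering counting error only. Its neighbours c-NAD-MDH1, a cytosolic malate dehydrogenase, and AT1G04420, an oxidoreductase family protein, were as nearly absent, with 5 and 8 reads against 14160 and 16768 reads and with 0 and 0 reads against 715 and 790 reads. The next genes with reads on either side, AT1G04390 (247 and 290 reads in hy5, 262 and 258 reads in cry1 cry2) and AT1G04430 (2508 and 2781 reads and 2924 and 2795 reads), were covered in both mutants. The genes with few or no reads in cry1 cry2 thus span base 1185512 to base 1193884 of chromosome 1 and include neighbours of CRY2, and the share of any later difference that comes from those neighbours was not tested. Fewer cells of a type and less RNA per cell cannot be told apart in whole-seedling libraries. Markers of green tissue (LHCB1.3, RBCS1A, RCA, PSAD1 and PSBO1) summed to 16884 and 16853 CPM in hy5 and 5022 and 4839 CPM in cry1 cry2. Their WT sums were 32861 and 30822 CPM. Directly 5 of 5 were higher in hy5, beside 23.2% of all loci tested. Against WT the members were divided in hy5, with 2 called above (RBCS1A and RCA) and 3 below. In cry1 cry2 0 were above and 5 below. The 18 root markers summed to 7529 and 7724 CPM in hy5 and 8289 and 8114 CPM in cry1 cry2. Both mutants were above the WT sums of 4851 and 4824 CPM. By member, 11 of 18 were called above WT in hy5 and 7 below, and 11 above and 0 below in cry1 cry2.

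The 2 mutants differed at 9046 loci, 43.7% of those tested (edgeR quasi-likelihood F test, Benjamini-Hochberg adjusted p under 0.05). Of these, 4254 (20.6% of loci tested) were higher in cry1 cry2 and 4792 (23.2%) were higher in hy5. Differences of at least 2-fold were less even, with 682 loci (3.30%) higher in cry1 cry2 and 1275 (6.16%) higher in hy5. In the same fit cry1 cry2 differed from WT at 10634 loci (51.4%) and hy5 at 8872 (42.9%), and both of these contrasts share the 2 WT libraries. Of all loci tested, 25.6% were above and 25.8% below WT in cry1 cry2, and 22.6% were above and 20.2% below in hy5. These shares, and 20.6% and 23.2% for the direct comparison, are the background for every list count given below. Both libraries of one mutant lay beyond both of the other at 34.9% of loci with cry1 cry2 higher and at 34.8% with hy5 higher, which is the background for each statement that the libraries did not overlap. The split depends on scaling: with library sizes alone, which shifts the median of all loci by 0.18 on the log2 scale, 8044 loci were higher in cry1 cry2 and 3159 in hy5, so that 71.8% of calls were on the cry1 cry2 side in place of 47.0%. The imbalance at 2-fold turned as well, with 1051 loci higher in cry1 cry2 and 997 higher in hy5.

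**Figure D1:**
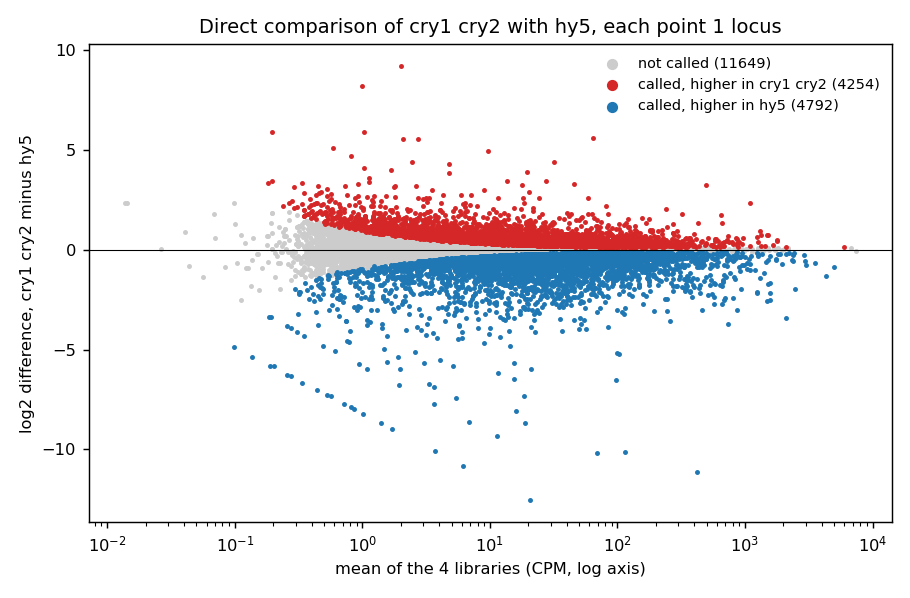
Each point is 1 locus; the horizontal axis is its mean CPM over the 2 hy5 and 2 cry1 cry2 libraries on a log axis, and the vertical axis is the log2 difference, cry1 cry2 minus hy5. Red points (4254) were called higher in cry1 cry2, blue points (4792) higher in hy5 and grey points (11649) were not called; the points far below 0 are loci with few or no reads in cry1 cry2, whose plotted value depends on the fit and is not a measured fold.

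Set against WT, the directly called loci fell into 9 classes. Cryptochrome loss alone was called at 1529 of the directly called loci that stood above WT (228 of them with a direct difference of at least 2-fold) and 1629 that stood below WT (411 of at least 2-fold). HY5 loss alone was called at 806 above WT (98 of at least 2-fold) and 971 below WT (208 of at least 2-fold). The mutants stood on opposite sides of WT at 927 loci: 258 were above WT in cry1 cry2 and below it in hy5, and 669 were the other way round, 416 of these with a direct difference of at least 2-fold. Where both mutants were called on the same side, cry1 cry2 was mostly the further from WT: it was the higher at 799 of 1185 loci above WT, and hy5 was the higher at 964 of 1142 loci below WT. The remaining 857 directly called loci were called against WT in neither mutant. These counts move with the scaling and with the WT libraries. With library sizes alone the opposite-side classes held 564 loci with cry1 cry2 above WT and 508 with cry1 cry2 below. The order of the classes moves too: with library sizes alone the loci below WT in cry1 cry2 alone (1004) were fewer than those below WT in hy5 alone (1316) and those above WT in both (1870). Without WT replicate 1 the class called in neither mutant held 1632 loci, more than the 1430 above WT in cry1 cry2 alone, and the class above WT in cry1 cry2 and below in hy5 held 131. Without WT replicate 2 these 3 classes held 1560, 1471 and 134 loci.

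**Figure D2:**
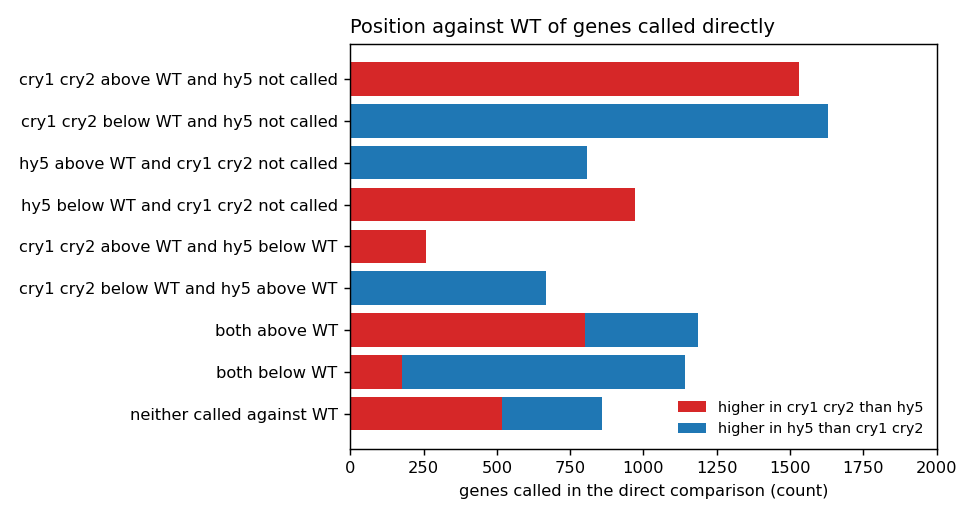
Bars count the 9046 loci called in the direct comparison by how each mutant was called against WT; red parts were higher in cry1 cry2 than in hy5 and blue parts higher in hy5. The largest bars are the loci called against WT in cry1 cry2 alone (1629 below and 1529 above), and the class below WT in cry1 cry2 and above it in hy5 (669) exceeds its mirror image (258), an order that turns with library sizes alone (508 and 564).

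Genes of the photosynthetic apparatus separated the mutants almost as a whole, and nearly all of them were lower without cryptochromes than without HY5. Of 20 light-harvesting antenna genes, 19 were higher in hy5 and 1 in cry1 cry2, beside 23.2% and 20.6% of all loci tested, and their median log2 difference was -1.39 (0.01 over all loci). All 28 tested genes for photosystem and electron transport subunits were higher in hy5 (median -1.51), as were all 5 genes for Rubisco small subunits and Rubisco activase (median -2.52). These counts were the same under RLE scaling, library sizes alone and DESeq2.

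The groups differed in where hy5 stood against WT. Antenna genes were below WT in both mutants, 19 of 20 in cry1 cry2 and 17 of 20 in hy5, beside 25.8% and 20.2% of all loci. LHCB1.3, a major chlorophyll a/b-binding protein of photosystem II, had 6145 and 6239 CPM in hy5, 2597 and 2434 in cry1 cry2 and 21901 and 20190.0 in WT. The libraries of the 3 genotypes formed separate steps, with hy5 below WT (log2 difference against WT -1.76 ± 0.05) and cry1 cry2 below hy5 (log2 difference -1.30 ± 0.05, adjusted p = 6.5e-20). LHCB2.1, another antenna protein, had 641 and 637 CPM in hy5 and 126 and 119 in cry1 cry2 (log2 difference -2.38 ± 0.06, adjusted p = 4.33e-24). LHCB3, also of the photosystem II antenna, had 566 and 568 CPM in hy5, 426 and 403 in cry1 cry2 and 2850.1 and 2756 in WT. LHCB3 was below WT in both mutants and lower in cry1 cry2 than in hy5 (log2 difference -0.45 ± 0.05, adjusted p = 7e-09). LHCB4.2, which encodes a minor antenna protein, ran the other way, with 583 and 599 CPM in hy5 and 803 and 759 in cry1 cry2 (log2 difference 0.40 ± 0.05, adjusted p = 2.08e-07). LHCA6, an antenna protein used in linking photosystem I to the chloroplast NADH dehydrogenase-like complex, had 36.5 and 37.1 CPM in hy5, 7.37 and 9.58 in cry1 cry2 and 17.2 and 17.8 in WT. LHCA6 was above WT in hy5 and below it in cry1 cry2 (log2 difference -2.12 ± 0.10, adjusted p = 3.13e-17). The LHCB1 genes and the RBCS genes are near-identical copies, and how the authors' counting divided reads among them is not given, so single members of these families are uncertain.

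Rubisco genes, in contrast to the antenna genes, stood above WT in hy5: 5 of 5 were called above WT there (22.6% of all loci) and 5 of 5 below WT in cry1 cry2. RCA, Rubisco activase, which frees the active sites of Rubisco, had 3986 and 3746 CPM in hy5, 366 and 358 in cry1 cry2 and 2945 and 2827 in WT. Both cry1 cry2 libraries lay far below the other 4 and both hy5 libraries above WT (log2 difference -3.42 ± 0.05, adjusted p = 2.26e-28; hy5 minus WT 0.42 ± 0.05, adjusted p = 2.78e-08). RBCS3B, a Rubisco small subunit, had 2707 and 2672 CPM in hy5, 468 and 468 in cry1 cry2 and 1774 and 1716 in WT. RBCS3B was above WT in hy5 and below it in cry1 cry2 (log2 difference -2.52 ± 0.05, adjusted p = 6.37e-26). RBCS1A had 3871 and 4004 CPM in hy5, 994 and 1024 in cry1 cry2 and 3534 and 3489 in WT. RBCS1A was above WT in hy5 and below it in cry1 cry2 (log2 difference -1.96 ± 0.05, adjusted p = 5.87e-24). PETC, the Rieske protein of the cytochrome b6f complex, had 556 and 544 CPM in hy5, 143 and 138 in cry1 cry2 and 556 and 533 in WT. PETC was below WT in cry1 cry2 and not called against WT in hy5 (log2 difference -1.97 ± 0.05, adjusted p = 8.83e-23). The plastocyanin gene DRT112 had 854 and 840.5 CPM in hy5, 177 and 175 in cry1 cry2 and 925 and 910.1 in WT. DRT112 was below WT in cry1 cry2 and not called against WT in hy5 (log2 difference -2.26 ± 0.05, adjusted p = 1.82e-24). Both hy5 libraries lay below WT, and this difference narrowly missed the threshold (-0.12 ± 0.05, adjusted p = 0.0589). PSBO2, a subunit of the oxygen-evolving complex, had 405 and 421 CPM in hy5, 71.8 and 76.5 in cry1 cry2 and 430.3 and 413 in WT. PSBO2 was below WT in cry1 cry2 and not called against WT in hy5 (log2 difference -2.48 ± 0.06, adjusted p = 2.15e-24). For these 3 carriers and subunits the hy5 libraries lay close to WT and the cry1 cry2 libraries far below. FD2, the leaf ferredoxin that passes electrons on from photosystem I, had 806 and 838 CPM in hy5, 242 and 238 in cry1 cry2 and 399 and 408 in WT. FD2 was above WT in hy5 and below it in cry1 cry2 (log2 difference -1.78 ± 0.05, adjusted p = 4.99e-22). PSAN, a lumenal subunit of photosystem I, had 743 and 695 CPM in hy5, 166 and 156 in cry1 cry2 and 1259 and 1223 in WT. PSAN was below WT in both mutants and lower in cry1 cry2 than in hy5 (log2 difference -2.16 ± 0.06, adjusted p = 2.14e-23).

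**Figure D3:**
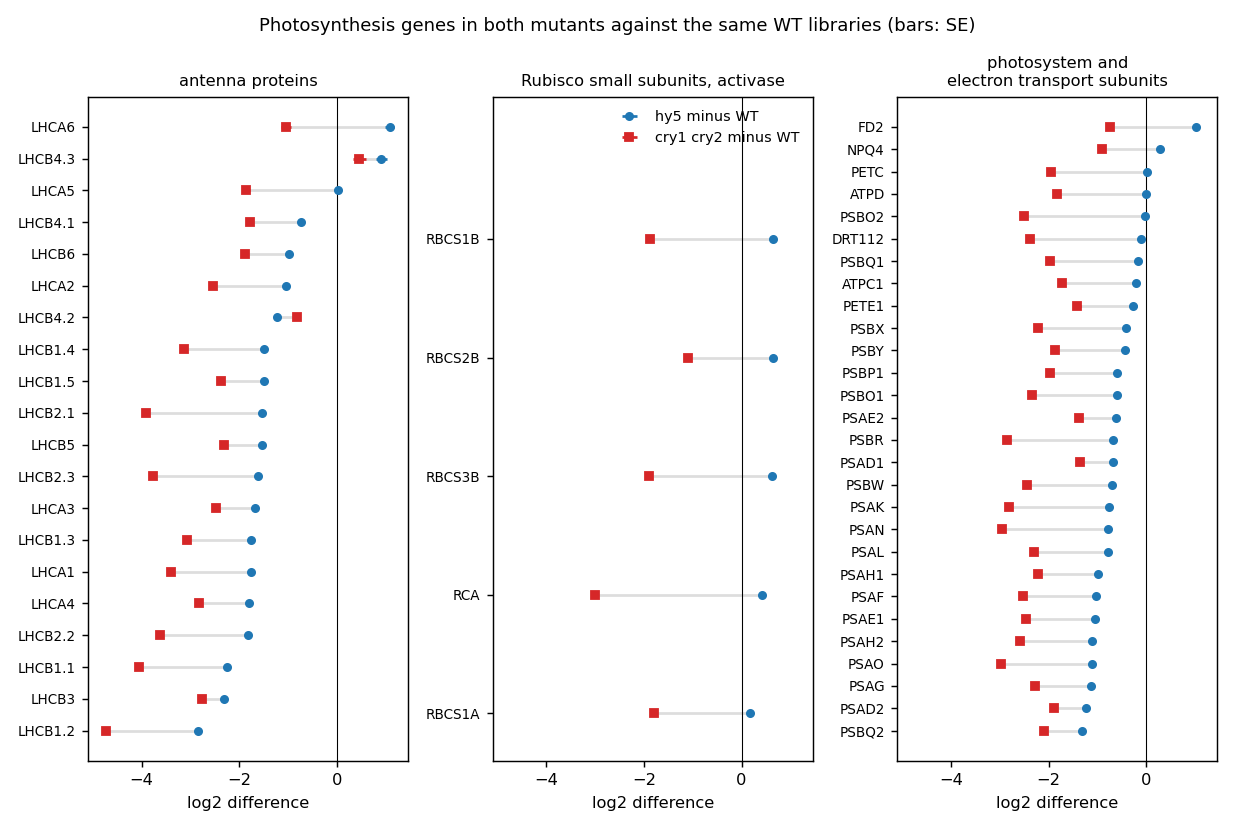
Each row is a gene, with its log2 difference against the same 2 WT libraries in hy5 (blue circles) and in cry1 cry2 (red squares), bars showing the standard error, for antenna proteins (left), Rubisco small subunits and activase (middle) and photosystem and electron transport subunits (right). The red squares lie to the left of the blue circles in every row except that of LHCB4.2, and the blue circles of the 5 Rubisco genes lie to the right of 0.

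Chlorophyll synthesis split into a main group that was lower in cry1 cry2 and a pair of genes that went strongly the other way. Of 15 genes, 13 were higher in hy5 and 2 in cry1 cry2 (median log2 difference -0.98). GUN5, the large subunit of magnesium chelatase, had 608 and 529.7 CPM in hy5, 216 and 207 in cry1 cry2 and 692 and 671 in WT. GUN5 was below WT in both mutants and lower in cry1 cry2 than in hy5 (log2 difference -1.43 ± 0.06, adjusted p = 1.77e-18). CRD1, which closes the fifth ring of the pigment, had 512 and 504 CPM in hy5, 186 and 183 in cry1 cry2 and 877 and 863 in WT. CRD1 was below WT in both mutants and lower in cry1 cry2 than in hy5 (log2 difference -1.46 ± 0.05, adjusted p = 3.9e-20). PORC, the light-induced form of protochlorophyllide oxidoreductase, had 35.1 and 31.9 CPM in hy5, 11.3 and 11.7 in cry1 cry2 and 32.1 and 32.5 in WT. PORC was below WT in cry1 cry2 and not called against WT in hy5 (log2 difference -1.54 ± 0.09, adjusted p = 3.8e-15). The exceptions were the other forms of the same enzyme. PORA (AT5G54190, chromosome 5, bases 21990864 to 21992814), the form that accumulates in the dark and is shut off by light in wild type seedlings, had 2.87 and 2.43 CPM in hy5, 130.1 and 121 in cry1 cry2 and 0.983 and 1.53 in WT. Both cry1 cry2 libraries stood far above the other 4 (log2 difference 5.57 ± 0.11, adjusted p = 2.06e-26), while hy5 was above WT by much less (1.08 ± 0.24, adjusted p = 0.000522). PORB (AT4G27440, chromosome 4, bases 13725546 to 13727440) had 91.8 and 92.2 CPM in hy5, 381 and 388 in cry1 cry2 and 184 and 185 in WT. PORB was below WT in hy5 and above it in cry1 cry2 (log2 difference 2.06 ± 0.05, adjusted p = 3.86e-23). 

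The 250 bases before the annotated start of PORA (TAIR10.1 chr5:21992815-21993064, minus strand) and PORB (chr4:13725296-13725545, plus strand) are printed because these are the chlorophyll genes that stood out from the list. They were searched for the G-box CACGTG, which reads the same on both strands, and for ACGTG on either strand, a core that every CACGTG contains. Over the loci tested 7.39% of such windows hold CACGTG and 23.9% hold ACGTG. Capitals mark ACGTG, or CACGT where the match is on the other strand. PORA has neither motif in this window, and PORB has ACGTG without CACGTG; a match is a description of letters and not a binding site.
PORA: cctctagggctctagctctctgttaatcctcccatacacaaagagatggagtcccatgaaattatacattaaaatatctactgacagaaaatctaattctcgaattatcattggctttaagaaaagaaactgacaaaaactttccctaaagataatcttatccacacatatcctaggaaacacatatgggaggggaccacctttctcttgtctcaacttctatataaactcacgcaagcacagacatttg
PORB: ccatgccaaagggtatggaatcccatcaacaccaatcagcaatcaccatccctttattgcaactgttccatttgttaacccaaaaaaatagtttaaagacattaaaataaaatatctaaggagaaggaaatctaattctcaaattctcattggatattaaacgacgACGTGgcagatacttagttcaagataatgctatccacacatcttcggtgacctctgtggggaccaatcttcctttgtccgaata

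In the direct comparison carotenoid and light-protection genes followed the antenna genes, with 13 of 15 higher in hy5 and 1 in cry1 cry2 (median -1.13). Against WT the list was divided in hy5, with 5 members above and 6 below, while cry1 cry2 had 1 above and 12 below. SEP1, a stress enhanced protein, was above WT in hy5 and below it in cry1 cry2 (log2 difference -1.86 ± 0.08, adjusted p = 1.8e-18). NPQ1, the violaxanthin de-epoxidase of photoprotection, had 52.9 and 53.5 CPM in hy5, 17.3 and 16.5 in cry1 cry2 and 94.1 and 94.99 in WT. NPQ1 was below WT in both mutants and lower in cry1 cry2 than in hy5 (log2 difference -1.66 ± 0.07, adjusted p = 5.29e-18). ABA1, zeaxanthin epoxidase, which acts in the reverse direction, had 216 and 209.9 CPM in hy5, 56.5 and 54.1 in cry1 cry2 and 289 and 304 in WT. ABA1 was below WT in both mutants and lower in cry1 cry2 than in hy5 (log2 difference -1.94 ± 0.06, adjusted p = 9.38e-22). The member higher in cry1 cry2 was ELIP1, an early light-induced protein of the thylakoid, with 0.528 and 1.01 CPM in hy5, 6.92 and 5.61 in cry1 cry2 and 2.28 and 1.99 in WT. ELIP1 was below WT in hy5 and above it in cry1 cry2 (log2 difference 2.98 ± 0.27, adjusted p = 1.03e-10).

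Among photoreceptors and UV-repair genes, 2 of 13 tested members were higher in cry1 cry2 and 8 in hy5 (median log2 difference -0.33). PHYA, the far-red phytochrome, whose transcript is known to fall in light, had 788 and 755 CPM in hy5, 1143 and 1185 in cry1 cry2 and 722 and 732 in WT. Its hy5 libraries did not pass the test against WT (adjusted p = 0.172), and cry1 cry2 was higher than hy5 (log2 difference 0.59 ± 0.05, adjusted p = 3.54e-11). PHOT2, a phototropin, had 188 and 168 CPM in hy5, 78.6 and 79.1 in cry1 cry2 and 142 and 144 in WT. PHOT2 was above WT in hy5 and below it in cry1 cry2 (log2 difference -1.17 ± 0.06, adjusted p = 2.64e-16). RUP2, a repressor of the UV-B receptor UVR8, had 11.3 and 11.3 CPM in hy5, 4.26 and 3.97 in cry1 cry2 and 10.4 and 10.3 in WT. RUP2 was below WT in cry1 cry2 and not called against WT in hy5 (log2 difference -1.46 ± 0.14, adjusted p = 4.39e-10). CRY3, the organelle cryptochrome, had 10.8 and 11.04 CPM in hy5, 4.21 and 5.67 in cry1 cry2 and 18.4 and 18.7 in WT. CRY3 was below WT in both mutants and lower in cry1 cry2 than in hy5 (log2 difference -1.15 ± 0.14, adjusted p = 6.53e-08).

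Regulators of light signalling were mostly lower in cry1 cry2. Of 23 genes, 12 were higher in hy5 and 5 in cry1 cry2 (11 and 4 with the filter of at least 5 CPM in 2 libraries). HYH, the closest relative of HY5, had 10.1 and 9.17 CPM in hy5, 3.99 and 4.59 in cry1 cry2 and 12.2 and 11.4 in WT. HYH was below WT in cry1 cry2 and not called against WT in hy5 (log2 difference -1.16 ± 0.16, adjusted p = 3.96e-07). Its hy5 difference from WT narrowly missed the threshold (-0.30 ± 0.13, adjusted p = 0.0542). Among the partners of COP1, SPA1, SPA3 and SPA4 were lower in cry1 cry2, and neither SPA2 (log2 difference -0.15 ± 0.07, adjusted p = 0.0965) nor COP1 itself (log2 difference -0.17 ± 0.07, adjusted p = 0.0675) was called. SPA3 had 65.5 and 60.3 CPM in hy5, 19.99 and 19.2 in cry1 cry2 and 36.2 and 35.5 in WT. SPA3 was above WT in hy5 and below it in cry1 cry2 (log2 difference -1.68 ± 0.08, adjusted p = 1.64e-17). SPA1 had 110.2 and 94.03 CPM in hy5, 43.4 and 43.8 in cry1 cry2 and 108 and 110.1 in WT. SPA1 was below WT in cry1 cry2 and not called against WT in hy5 (log2 difference -1.23 ± 0.07, adjusted p = 2.61e-15).

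The B-box proteins, zinc-finger cofactors of which several bind HY5, showed the widest gaps in that list. BBX25 had 85.6 and 81.5 CPM in hy5, 7.25 and 7.09 in cry1 cry2 and 37.01 and 35.4 in WT. BBX25 was above WT in hy5 and below it in cry1 cry2 (log2 difference -3.54 ± 0.09, adjusted p = 6.16e-24). BBX31 had 12.1 and 10.7 CPM in hy5, 0.775 and 0.5102 in cry1 cry2 and 3.04 and 1.89 in WT. BBX31 was above WT in hy5 and below it in cry1 cry2 (log2 difference -4.13 ± 0.25, adjusted p = 2.21e-14). BBX30 had 7.86 and 8.16 CPM in hy5, 0.277 and 0.0567 in cry1 cry2 and 1.39 and 1.64 in WT. BBX30 was above WT in hy5 and below it in cry1 cry2 (log2 difference -5.52 ± 0.34, adjusted p = 2.62e-14). BBX32, a repressor of HY5-type responses, showed the same order, with 3.87 and 3.901 CPM in hy5 and 1 and 1 reads in cry1 cry2, which is 1.44% (95% exact Poisson interval 0.175% to 5.21%) of the hy5 level. BBX29 had 10.6 and 11.3 CPM in hy5 and 1.55 and 1.76 in cry1 cry2. BBX29 was below WT in cry1 cry2 and not called against WT in hy5 (log2 difference -2.73 ± 0.18, adjusted p = 2.08e-13). BBX22, which promotes greening, had 29.03 and 29.7 CPM in hy5, 18.6 and 15.4 in cry1 cry2 and 73.4 and 74.8 in WT. BBX22 was below WT in both mutants and lower in cry1 cry2 than in hy5 (log2 difference -0.79 ± 0.08, adjusted p = 4.91e-09). BBX23 had nearly all of its reads in cry1 cry2, with 75 and 72 reads there, 0 and 3 reads in hy5 and 0 and 0 reads in WT. Its hy5 level was 1.98% (95% exact Poisson interval 0.408% to 5.79%) of the cry1 cry2 level. Among WT, hy5 and cry1 cry2 only cry1 cry2 reached the minimum count of 10. The place of BBX23 among the tested genes thus rests in part on cry1 cry2.

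The window before the start of BBX30 (chr4:8708591-8708840, plus strand) is shown because BBX30 is among the genes that most widely separate the mutants and its level in hy5 is above WT. It holds CACGTG, first base 72 bases before the gene start, and a further ACGTG.
BBX30: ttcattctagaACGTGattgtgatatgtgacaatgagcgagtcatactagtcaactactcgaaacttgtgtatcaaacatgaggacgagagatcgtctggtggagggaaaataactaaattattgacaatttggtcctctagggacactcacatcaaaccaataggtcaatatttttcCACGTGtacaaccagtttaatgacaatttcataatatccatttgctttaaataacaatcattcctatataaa

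**Figure D4:**
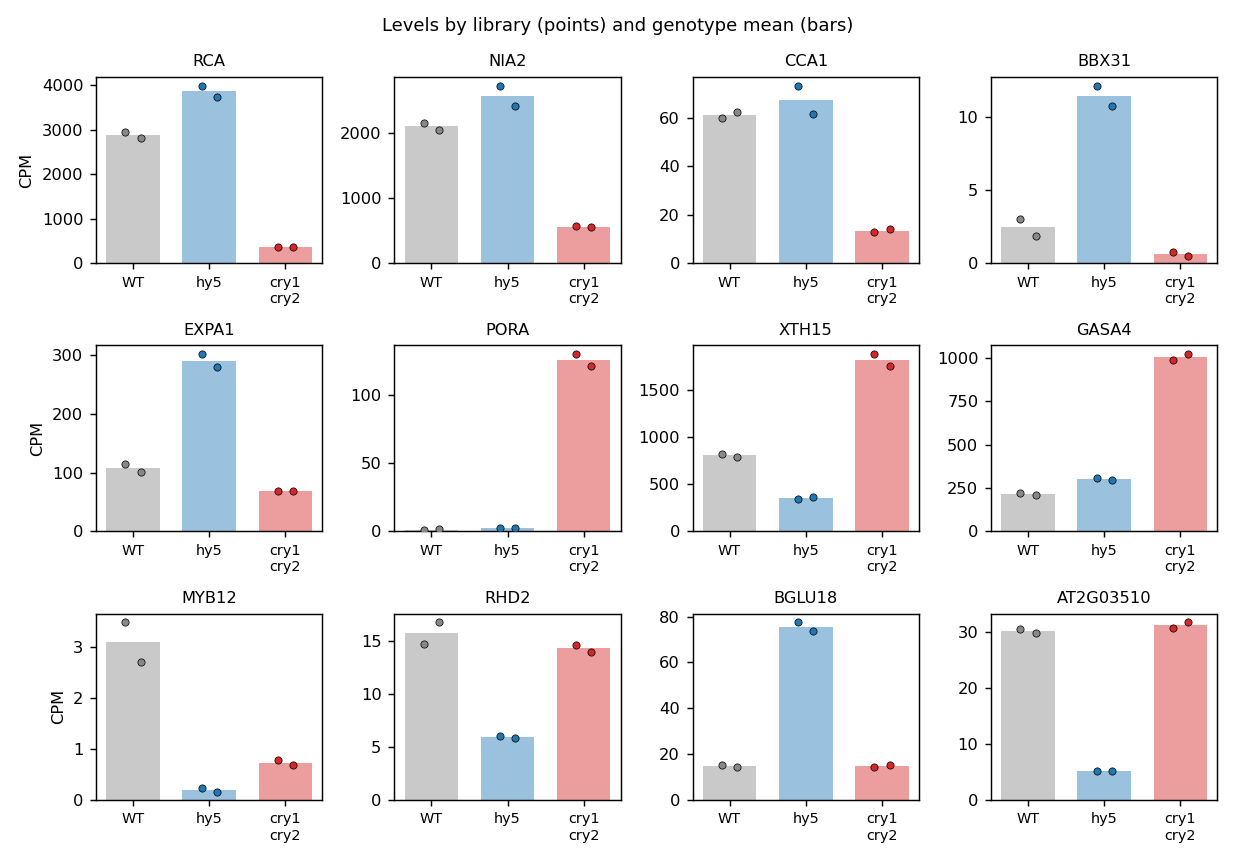
Each panel shows 1 gene, with a point for the CPM of each library and a bar for the mean of the 2 libraries of WT (grey), hy5 (blue) and cry1 cry2 (red); the vertical scales start at 0 and differ between panels. RCA, NIA2, CCA1, BBX31 and EXPA1 are low in cry1 cry2, and PORA, XTH15 and GASA4 are high in cry1 cry2. RHD2 and AT2G03510 are low in hy5, and BGLU18 is high in hy5. MYB12 is below WT in both mutants and lowest in hy5.

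The circadian clock list was lower in cry1 cry2 at most of its members. Of 21 tested genes, 16 were higher in hy5 and 4 in cry1 cry2 (median -0.80). CCA1, a morning factor, had 73.1 and 61.7 CPM in hy5, 12.9 and 13.9 in cry1 cry2 and 60.03 and 62.5 in WT. LHY, its partner, had 58.4 and 55.7 CPM in hy5, 9.36 and 7.88 in cry1 cry2 and 50.3 and 49.6 in WT. Their hy5 libraries lay at or slightly above WT and their cry1 cry2 libraries far below (log2 difference -2.32 ± 0.09, adjusted p = 1.08e-19 for CCA1; log2 difference -2.72 ± 0.09, adjusted p = 3.53e-21 for LHY). RVE1, a related factor that links the clock to auxin synthesis, had 93.3 and 86.5 CPM in hy5, 22.3 and 21.3 in cry1 cry2 and 43.9 and 49.4 in WT. RVE1 was above WT in hy5 and below it in cry1 cry2 (log2 difference -2.04 ± 0.07, adjusted p = 5.89e-20). CDF1, a repressor of flowering, had 12.3 and 12.3 CPM in hy5, 1.88 and 2.49 in cry1 cry2 and 16.9 and 15.5 in WT. CDF1 was below WT in both mutants and lower in cry1 cry2 than in hy5 (log2 difference -2.49 ± 0.16, adjusted p = 7.14e-14). LNK2, a coactivator in the clock, had 201 and 185 CPM in hy5, 57.4 and 59.5 in cry1 cry2 and 344 and 346 in WT. LNK2 was below WT in both mutants and lower in cry1 cry2 than in hy5 (log2 difference -1.72 ± 0.06, adjusted p = 6.43e-20). GI, which stabilises the blue-light sensing protein ZTL, was one of the 4 members higher in cry1 cry2: it had 60.6 and 58.97 CPM in hy5, 109 and 117 in cry1 cry2 and 122 and 122 in WT. GI was below WT in hy5 and not called against WT in cry1 cry2 (log2 difference 0.92 ± 0.06, adjusted p = 6.49e-14). PRR7, a repressor in the clock, had 84.8 and 82.9 CPM in hy5, 71.5 and 73.4 in cry1 cry2 and 246 and 239 in WT. PRR7 was below WT in both mutants and lower in cry1 cry2 than in hy5 (log2 difference -0.21 ± 0.06, adjusted p = 0.00394). With library sizes alone that difference did not pass (-0.04, adjusted p = 0.622). The labels do not give the hour of harvest, so a shift in phase and a change in level cannot be told apart.

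Several enzymes of nitrogen assimilation were lower in cry1 cry2 than in hy5. In the nitrate and ammonium list, 1 of 8 tested members were higher in cry1 cry2 and 4 in hy5 (median log2 difference -0.46), beside 20.6% and 23.2% of all loci. NIA2, the main nitrate reductase, had 2713 and 2404 CPM in hy5, 567 and 553 in cry1 cry2 and 2153 and 2046 in WT. NIA2 was above WT in hy5 and below it in cry1 cry2 (log2 difference -2.19 ± 0.06, adjusted p = 1.94e-23). GLN2, the chloroplast glutamine synthetase, had 1505 and 1458 CPM in hy5, 377 and 385 in cry1 cry2 and 1314 and 1285 in WT. GLN2 was above WT in hy5 and below it in cry1 cry2 (log2 difference -1.96 ± 0.05, adjusted p = 2.2e-23). GLU1, ferredoxin-dependent glutamate synthase, had 952 and 838 CPM in hy5, 262 and 279.5 in cry1 cry2 and 754 and 774 in WT. GLU1 was above WT in hy5 and below it in cry1 cry2 (log2 difference -1.72 ± 0.06, adjusted p = 1.86e-20). The cytosolic glutamine synthetase GLN1;1 was the member higher in cry1 cry2, with 147 and 154 CPM in hy5 and 204 and 190.2 in cry1 cry2 (log2 difference 0.39 ± 0.06, adjusted p = 2.37e-06).

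In the cold and abscisic acid list 10 of 15 members were lower in cry1 cry2 and 3 were higher (median -0.66). COR15A, a chloroplast-targeted cold-protection protein, had 48 and 57 reads in hy5, 1 and 2 reads in cry1 cry2 and 76 and 75 reads in WT, so that cry1 cry2 stood at 2.94% (95% exact Poisson interval 0.607% to 8.6%) of the hy5 level. Its paralog COR15B had 74 and 66 reads, 1 and 0 reads and 373 and 302 reads, and was also below WT in hy5. CBF2, a transcription factor that switches on COR genes, had 7.097 and 6.84 CPM in hy5, 2.49 and 3.23 in cry1 cry2 and 11.5 and 9.25 in WT. CBF2 was below WT in both mutants and lower in cry1 cry2 than in hy5 (log2 difference -1.28 ± 0.17, adjusted p = 4.33e-07). CBF3 had 1.35 and 0.608 CPM in hy5 and 0.222 and 0.227 in cry1 cry2 (log2 difference -2.06 ± 0.53, adjusted p = 0.00201), a call lost without hy5 replicate 1 (-1.41, adjusted p = 0.0824). LTI30, a dehydrin, had 44.7 and 53.3 CPM in hy5, 23.5 and 23.98 in cry1 cry2 and 49.1 and 48.2 in WT. LTI30 was below WT in cry1 cry2 and not called against WT in hy5 (log2 difference -1.05 ± 0.08, adjusted p = 3.92e-12). The 3 members higher in cry1 cry2 were RAB18, RD29B and ABI5. RAB18, another dehydrin, had 34.6 and 34.2 CPM in hy5, 54.7 and 54.4 in cry1 cry2 and 21.4 and 23.7 in WT. RAB18 was above WT in both mutants and higher in cry1 cry2 than in hy5 (log2 difference 0.67 ± 0.08, adjusted p = 1.68e-08). RD29B had 50.7 and 48.3 CPM in hy5, 60.1 and 61.0 in cry1 cry2 and 26.2 and 28.02 in WT. RD29B was above WT in both mutants and higher in cry1 cry2 than in hy5 (log2 difference 0.29 ± 0.06, adjusted p = 0.000441). ABI5, a transcription factor of abscisic acid signalling, had 8.92 and 9.07 CPM in hy5 and 10.02 and 14.5 in cry1 cry2 (log2 difference 0.45 ± 0.14, adjusted p = 0.0106). The ABI5 call was lost with DESeq2 (adjusted p = 0.0765), without either hy5 library (adjusted p = 0.0531 and 0.0501) and without cry1 cry2 replicate 2 (0.16, adjusted p = 0.473).

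In the jasmonate list, 1 of 14 tested members were higher in cry1 cry2 and 6 in hy5 (median log2 difference -0.58). Of the 6 genes higher in hy5, LOX2, AOS, AOC1 and AOC2 act in synthesis of the hormone, and VSP1 and CLH1 respond to it. LOX2, a chloroplast lipoxygenase at the start of the pathway, had 19.3 and 18.3 CPM in hy5, 1.55 and 0.907 in cry1 cry2 and 9.83 and 10.7 in WT. LOX2 was above WT in hy5 and below it in cry1 cry2 (log2 difference -3.92 ± 0.17, adjusted p = 9.16e-18). AOC2, allene oxide cyclase, had 38.5 and 39.6 CPM in hy5, 2.44 and 2.89 in cry1 cry2 and 57.2 and 65.1 in WT. AOC2 was below WT in both mutants and lower in cry1 cry2 than in hy5 (log2 difference -3.87 ± 0.12, adjusted p = 2.4e-21). The response gene VSP2 was above WT in both mutants at a like level, 8.798 and 8.11 CPM in hy5 and 8.75 and 9.47 in cry1 cry2, and the direct test was not passed (log2 difference 0.11 ± 0.14, adjusted p = 0.552). Glucosinolate synthesis split by branch. In the aliphatic, methionine-derived branch 6 of 11 tested genes were higher in hy5 and 0 in cry1 cry2 (median -0.73), and in the indole, tryptophan-derived branch 7 of 11 were higher in cry1 cry2 and 0 in hy5 (median 0.31). MYB28, the regulator of the aliphatic branch, had 14.9 and 12.9 CPM in hy5, 4.26 and 4.195 in cry1 cry2 and 12.4 and 11.4 in WT. MYB28 was below WT in cry1 cry2 and not called against WT in hy5 (log2 difference -1.71 ± 0.13, adjusted p = 7.19e-12). SOT16, a sulfotransferase of the indole branch, had 48.2 and 50.2 CPM in hy5, 79.8 and 82.4 in cry1 cry2 and 45.1 and 42.1 in WT. SOT16 was above WT in both mutants and higher in cry1 cry2 than in hy5 (log2 difference 0.72 ± 0.06, adjusted p = 4.5e-11).

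Wall-loosening genes differed between the mutants in both directions. Expansins and xyloglucan enzymes were above WT in both mutants at 19 of 26 members in cry1 cry2 (25.6% of all loci) and 19 in hy5. Directly 10 were higher in cry1 cry2 and 11 in hy5 (14 and 6 with library sizes alone). XTH15, a xyloglucan endotransglucosylase, had 348 and 363 CPM in hy5, 1879.6 and 1758 in cry1 cry2 and 827 and 790.1 in WT. XTH15 was below WT in hy5 and above it in cry1 cry2 (log2 difference 2.35 ± 0.06, adjusted p = 2.13e-24). XTH19 had 64.5 and 69.2 CPM in hy5, 169 and 167 in cry1 cry2 and 43.8 and 45.5 in WT. XTH19 was above WT in both mutants and higher in cry1 cry2 than in hy5 (log2 difference 1.33 ± 0.06, adjusted p = 3.51e-18). XTH17 had 407 and 416 CPM in hy5, 623 and 600.4 in cry1 cry2 and 159 and 149 in WT. XTH17 was above WT in both mutants and higher in cry1 cry2 than in hy5 (log2 difference 0.57 ± 0.05, adjusted p = 2.22e-10). EXPA1, an expansin, ran the other way, with 301 and 278 CPM in hy5, 68.3 and 68.5 in cry1 cry2 and 114 and 101 in WT. EXPA1 was above WT in hy5 and below it in cry1 cry2 (log2 difference -2.08 ± 0.06, adjusted p = 8.01e-22). EXPA8, of the same family, had 297 and 297 CPM in hy5, 174 and 161 in cry1 cry2 and 136 and 124 in WT. EXPA8 was above WT in both mutants and lower in cry1 cry2 than in hy5 (log2 difference -0.82 ± 0.06, adjusted p = 3.08e-13).

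Gibberellin genes leaned to cry1 cry2, with 9 of 19 higher there and 3 in hy5 (median 0.40). GA3OX1, which makes the bioactive hormone, had 1.76 and 1.93 CPM in hy5, 11.7 and 12.9 in cry1 cry2 and 2.55 and 1.79 in WT. GA3OX1 was above WT in cry1 cry2 and not called against WT in hy5 (log2 difference 2.73 ± 0.18, adjusted p = 1.3e-13). GA20OX1, which acts in the step before, had 4.52 and 4.76 CPM in hy5, 11.2 and 11.1 in cry1 cry2 and 1.56 and 1.74 in WT. GA20OX1 was above WT in both mutants and higher in cry1 cry2 than in hy5 (log2 difference 1.26 ± 0.15, adjusted p = 6.3e-08). GASA4, a gibberellin-induced peptide gene, had 308 and 297 CPM in hy5, 986 and 1020.5 in cry1 cry2 and 219 and 210.4 in WT. GASA4 was above WT in both mutants and higher in cry1 cry2 than in hy5 (log2 difference 1.73 ± 0.05, adjusted p = 1.04e-21). GASA1, of the same family, had 390.3 and 386 CPM in hy5, 195 and 207 in cry1 cry2 and 274 and 286 in WT. GASA1 was above WT in hy5 and below it in cry1 cry2 (log2 difference -0.95 ± 0.05, adjusted p = 4.48e-15). In the auxin list 7 of 28 were higher in cry1 cry2 and 10 in hy5, a majority that turned with library sizes alone (15 and 4). The shares, 25% and 35.7%, are not far from the 20.6% and 23.2% of all loci tested. IAA19, an auxin-induced repressor, had 58.2 and 59.2 CPM in hy5, 124 and 123 in cry1 cry2 and 24.99 and 25.5 in WT. IAA19 was above WT in both mutants and higher in cry1 cry2 than in hy5 (log2 difference 1.07 ± 0.06, adjusted p = 9e-16). IAA14, another member of the same family, had 41.4 and 44.1 CPM in hy5, 18.6 and 20.2 in cry1 cry2 and 27.9 and 28.99 in WT. IAA14 was above WT in hy5 and below it in cry1 cry2 (log2 difference -1.14 ± 0.08, adjusted p = 2.6e-13). The auxin-responsive SAUR growth genes were above WT in hy5 at 13 of 16 (22.6% of all loci) and in cry1 cry2 at 11 (25.6%). Directly 9 were higher in hy5 (23.2% of all loci) and 1 in cry1 cry2 (20.6%), 3 and 1 with library sizes alone and with DESeq2. Many SAUR genes are near-identical neighbours, so single members are uncertain.

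Of the brassinosteroid list, 7 of 15 tested members were higher in cry1 cry2 and 4 in hy5 (median log2 difference 0.09). PRE6, a bHLH factor, was among the 7 higher in cry1 cry2 (log2 difference 0.96 ± 0.10, adjusted p = 3.01e-09). BES1, a transcription factor of the pathway and 1 of the 4 higher in hy5, had 236 and 235 CPM in hy5, 151 and 147 in cry1 cry2 and 136 and 126 in WT. BES1 was above WT in both mutants and lower in cry1 cry2 than in hy5 (log2 difference -0.66 ± 0.06, adjusted p = 5.5e-11). In the cytokinin list 2 of 11 tested members were higher in cry1 cry2 and 6 in hy5 (median log2 difference -0.22). With library sizes alone these counts were 3 and 4 (median -0.05), and DESeq2 gave 1 and 4. Its type-A response regulators ARR7 and ARR16 were higher in hy5. ARR7 had 14.2 and 12.3 CPM in hy5, 4.04 and 4.65 in cry1 cry2 and 8.09 and 7.57 in WT. ARR7 was above WT in hy5 and below it in cry1 cry2 (log2 difference -1.60 ± 0.14, adjusted p = 9.9e-11). ARR16 had 3.81 and 3.95 CPM in hy5, 0.886 and 0.907 in cry1 cry2 and 0.849 and 1.28 in WT. ARR16 was above WT in hy5 and not called against WT in cry1 cry2 (log2 difference -2.11 ± 0.28, adjusted p = 3.12e-07). CKX3, which degrades the hormone, had 0.352 and 0.355 CPM in hy5, 1.83 and 1.36 in cry1 cry2 and 0.939 and 0.4601 in WT. CKX3 was above WT in cry1 cry2 and not called against WT in hy5 (log2 difference 2.15 ± 0.44, adjusted p = 0.000174). Aquaporins were above WT in both mutants, at 16 of 18 members in cry1 cry2 (25.6% of all loci) and 17 in hy5 (22.6%). Directly 5 were higher in cry1 cry2 and 6 in hy5 (11 and 5 with library sizes alone). These direct shares, 27.8% and 33.3%, are not far from the 20.6% and 23.2% of all loci tested. The plasma membrane aquaporin PIP2;4 had 148 and 156 CPM in hy5 and 354 and 324 in cry1 cry2 (log2 difference 1.16 ± 0.06, adjusted p = 2.25e-16). PIP1;2 had 3848 and 3767 CPM in hy5 and 2277 and 2141 in cry1 cry2 (log2 difference -0.79 ± 0.05, adjusted p = 4.42e-14).

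Root markers stood on both sides of WT in hy5. Of 18 members 11 were above WT in hy5 and 7 below, and in cry1 cry2 11 were above and 0 below. Directly 11 were higher in cry1 cry2 and 0 in hy5, and the part of root hair number or root share in these values was not tested. The 7 members below WT in hy5, all of them known from root hairs, a feature noticed after the values were seen, were RHD2, COBL9, RSL4, EXP7, EXPA18, PRP1 and PRP3. RHD2, the NADPH oxidase that sustains root hair growth, had 5.98 and 5.88 CPM in hy5, 14.6 and 14.0 in cry1 cry2 and 14.8 and 16.8 in WT. Both hy5 libraries lay below the other 4, and cry1 cry2 was not called against WT (log2 difference 1.27 ± 0.12, adjusted p = 5.71e-10; cry1 cry2 minus WT adjusted p = 0.277). RSL4, the transcription factor that sets hair length, had 2.05 and 2.23 CPM in hy5, 3.93 and 3.69 in cry1 cry2 and 4.16 and 3.22 in WT. RSL4 was below WT in hy5 and not called against WT in cry1 cry2 (log2 difference 0.83 ± 0.22, adjusted p = 0.00279). COBL9 had 6.69 and 7.397 CPM in hy5, 14.4 and 10.9 in cry1 cry2 and 15.4 and 13.3 in WT. COBL9 was below WT in hy5 and not called against WT in cry1 cry2 (log2 difference 0.84 ± 0.14, adjusted p = 8.53e-06). PRP3, a proline-rich wall protein of root hairs, had 37.5 and 45.3 CPM in hy5, 95.9 and 90.7 in cry1 cry2 and 86.4 and 79.3 in WT. PRP3 was below WT in hy5 and above it in cry1 cry2 (log2 difference 1.17 ± 0.08, adjusted p = 1.13e-13). CASP5, a scaffold of the Casparian strip in the endodermis, was among the 11 members above WT in hy5 and had 65.05 and 68.8 CPM in hy5, 144 and 133 in cry1 cry2 and 30.7 and 30.5 in WT. CASP5 was above WT in both mutants and higher in cry1 cry2 than in hy5 (log2 difference 1.04 ± 0.06, adjusted p = 2.37e-15).

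The 6 genes with the widest direct difference among those called below WT in hy5 alone were AT2G03510, 4 extensin-like genes and XTH12, and no list of extensin genes was counted. AT2G03510, a membrane protein of the SPFH family, had 5.103 and 5.12 CPM in hy5, 30.8 and 31.8 in cry1 cry2 and 30.6 and 29.96 in WT. AT2G03510 was below WT in hy5 and not called against WT in cry1 cry2 (log2 difference 2.61 ± 0.10, adjusted p = 3.29e-19). The proline-rich extensin-like genes AT4G08410, AT4G08400 and AT5G06630 had 7.74 and 8.87 CPM, 9.09 and 8.71 CPM and 6.28 and 7.397 CPM in hy5 against 33.2 and 37.1 CPM, 33.1 and 36.0 CPM and 28.5 and 27.4 CPM in cry1 cry2. EXT13, of the same family, had 14.8 and 19.7 CPM in hy5, 64.4 and 61.6 in cry1 cry2 and 64.8 and 63.1 in WT. EXT13 was below WT in hy5 and not called against WT in cry1 cry2 (log2 difference 1.86 ± 0.09, adjusted p = 6.16e-17). XTH12 had 3.81 and 2.99 CPM in hy5, 11.5 and 12.1 in cry1 cry2 and 10.01 and 9.51 in WT. XTH12 was below WT in hy5 and not called against WT in cry1 cry2 (log2 difference 1.80 ± 0.15, adjusted p = 2.11e-11). Its cry1 cry2 difference from WT narrowly missed the threshold (0.27 ± 0.12, adjusted p = 0.059). Extensin-like genes share repeats, so reads may have been split among them.

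Genes above WT in hy5 alone formed no list but included well-known ones. BGLU18, a beta-glucosidase that releases abscisic acid from its conjugate, had 77.4 and 73.8 CPM in hy5, 14.3 and 15.3 in cry1 cry2 and 15.3 and 14.3 in WT. BGLU18 was above WT in hy5 and not called against WT in cry1 cry2 (log2 difference -2.35 ± 0.08, adjusted p = 5.99e-21). FLC, the repressor of flowering, had 26.04 and 23.2 CPM in hy5, 8.196 and 7.43 in cry1 cry2 and 7.11 and 8.38 in WT. FLC was above WT in hy5 and not called against WT in cry1 cry2 (log2 difference -1.65 ± 0.11, adjusted p = 3.4e-13). NIP6;1, a boron channel, had 15.5 and 13.6 CPM in hy5, 4.71 and 4.99 in cry1 cry2 and 5.81 and 6.08 in WT. NIP6;1 was above WT in hy5 and not called against WT in cry1 cry2 (log2 difference -1.58 ± 0.13, adjusted p = 2.51e-11). SQP1, annotated as an oxidoreductase family protein, had 13.3 and 10.6 CPM in hy5, 0.886 and 1.304 in cry1 cry2 and 2.06 and 1.53 in WT. SQP1 was above WT in hy5 and not called against WT in cry1 cry2 (log2 difference -3.44 ± 0.22, adjusted p = 6.44e-14). Its cry1 cry2 difference from WT narrowly missed the threshold (-0.72 ± 0.31, adjusted p = 0.0509). The pectin lyase-like gene AT1G48100 had 14.4 and 12.6 CPM in hy5, 1.88 and 1.93 in cry1 cry2 and 1.34 and 1.23 in WT. AT1G48100 was above WT in hy5 and not called against WT in cry1 cry2 (log2 difference -2.82 ± 0.18, adjusted p = 4.68e-14). AT4G15620 had 8.62 and 9.32 CPM in hy5, 3.82 and 2.38 in cry1 cry2 and 2.59 and 2.04 in WT. AT4G15620 was above WT in hy5 and not called against WT in cry1 cry2 (log2 difference -1.53 ± 0.19, adjusted p = 8.1e-08).

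Flavonol and early flavonoid genes, among the best-known targets of HY5, differed in both directions. Of 9 tested genes 4 were above WT and 4 below WT in hy5, and 2 were above and 6 below in cry1 cry2. Directly 3 were higher in cry1 cry2 and 3 in hy5 (median log2 difference 0.41, or -0.08 with the filter of at least 5 CPM in 2 libraries). MYB12, the factor that switches on the flavonol genes, had 4 and 3 reads in hy5, 14 and 12 reads in cry1 cry2 and 78 and 53 reads in WT. All 4 mutant libraries were below WT, hy5 the more so (log2 difference 1.90 ± 0.56, adjusted p = 0.00637), and the direct call was lost without hy5 replicate 2 (1.61, adjusted p = 0.0723). FLS1, flavonol synthase, had 1 and 3 reads in hy5 and 12 and 22 reads in cry1 cry2, so that hy5 stood at 11.4% (95% exact Poisson interval 3.11% to 29.2%) of the cry1 cry2 level. CHS, chalcone synthase, had 1.99 and 1.93 CPM in hy5, 3.32 and 3.69 in cry1 cry2 and 6.704 and 5.93 in WT. CHS was below WT in both mutants and higher in cry1 cry2 than in hy5 (log2 difference 0.84 ± 0.21, adjusted p = 0.00143). F3H, the third enzyme, had 0.8798 and 1.47 CPM in hy5 and 1.72 and 1.53 in cry1 cry2 against 10.1 and 10.5 CPM in WT and no direct call (log2 difference 0.44 ± 0.29, adjusted p = 0.227). CHI, chalcone isomerase, was among the 3 genes higher in hy5, with 11.6 and 13.5 CPM in hy5, 7.698 and 6.75 in cry1 cry2 and 6.17 and 4.86 in WT. CHI was above WT in both mutants and lower in cry1 cry2 than in hy5 (log2 difference -0.80 ± 0.14, adjusted p = 1.55e-05). UGT78D2, which adds glucose to flavonols and anthocyanins, was another of these, with 26.2 and 26.3 CPM in hy5, 8.47 and 7.94 in cry1 cry2 and 19.8 and 22.1 in WT. UGT78D2 was above WT in hy5 and below it in cry1 cry2 (log2 difference -1.68 ± 0.10, adjusted p = 1.05e-14). Only 3 of 10 anthocyanin genes had enough reads, and PAP1 and EGL3 were higher in cry1 cry2. The call at EGL3, a bHLH factor (log2 difference 0.86 ± 0.27, adjusted p = 0.0101), was lost with DESeq2 (adjusted p = 0.0801), without hy5 replicate 1 (0.57, adjusted p = 0.145) and without cry1 cry2 replicate 1 (0.78, adjusted p = 0.0644). PAP1, the regulator of the anthocyanin branch, had 35 and 39 reads in cry1 cry2, 4 and 2 reads in hy5 and 1 and 0 reads in WT. Of these genotypes only cry1 cry2 reached the minimum count of 10, so the place of PAP1 among the tested genes rests in part on cry1 cry2. In the general phenylpropanoid list 5 of 8 tested members were higher in cry1 cry2 and 2 in hy5 (median log2 difference 0.18). The largest difference toward cry1 cry2 in that list was at 4CL2, a coumarate ligase (log2 difference 0.35 ± 0.07, adjusted p = 0.000166). PAL2, a phenylalanine ammonia-lyase and 1 of the 2 members higher in hy5, had 166 and 161 CPM in hy5, 51.5 and 56.9 in cry1 cry2 and 152 and 144 in WT. PAL2 was above WT in hy5 and below it in cry1 cry2 (log2 difference -1.59 ± 0.06, adjusted p = 3.33e-19).

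MYB12 is a gene to which HY5 is known to bind, and its window (chr2:19476076-19476325, plus strand) is printed for that reason. It holds CACGTG, first base 118 bases before the gene start, and a further ACGTG.
MYB12: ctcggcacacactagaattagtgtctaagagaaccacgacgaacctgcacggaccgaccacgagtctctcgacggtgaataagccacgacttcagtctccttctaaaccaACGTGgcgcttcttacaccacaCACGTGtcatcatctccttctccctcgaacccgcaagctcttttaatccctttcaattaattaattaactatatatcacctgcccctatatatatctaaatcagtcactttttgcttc

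Iron genes were mostly below WT in both mutants, 10 of 14 members in hy5 (20.2% of all loci) and 8 in cry1 cry2 (25.8%). The mutants differed from each other in both directions. Directly 6 of 14 were higher in cry1 cry2 and 4 in hy5 (1 in hy5 with library sizes alone), and the median was -0.09 (0.09 with library sizes alone). BHLH38, a regulator of the iron-deficiency response, had 0.469 and 0.355 CPM in hy5, 1.88 and 1.93 in cry1 cry2 and 6.48 and 5.93 in WT. BHLH38 was below WT in both mutants and higher in cry1 cry2 than in hy5 (adjusted p = 1.76e-05). Its neighbour BHLH39 had 1.35 and 2.43 CPM in hy5, 4.21 and 4.48 in cry1 cry2 and 5.36 and 5.01 in WT. BHLH39 was below WT in hy5 and not called against WT in cry1 cry2 (log2 difference 1.17 ± 0.23, adjusted p = 0.000115). BHLH100, of the same group, had 0 and 0 reads in hy5, 4 and 10 reads in cry1 cry2 and 46 and 34 reads in WT. It was at least 4.81-fold higher in cry1 cry2, with 3 reads over both hy5 libraries as the floor. IRT1, the iron transporter of the root, had 1.23 and 0.811 CPM in hy5, 5.21 and 5.499 in cry1 cry2 and 2.73 and 2.04 in WT. IRT1 was below WT in hy5 and above it in cry1 cry2 (log2 difference 2.40 ± 0.25, adjusted p = 1.94e-09). BHLH101, also of the BHLH38 group, had 1.76 and 1.93 CPM in hy5 and 3.16 and 2.61 in cry1 cry2 (log2 difference 0.64 ± 0.24, adjusted p = 0.0313), a call lost with DESeq2 (adjusted p = 0.0874), without either hy5 library (adjusted p = 0.125 and 0.0788) and without cry1 cry2 replicate 1 (adjusted p = 0.21). OPT3, an oligopeptide-family transporter that moves iron in the phloem, was higher in hy5, with 139.8 and 128 CPM there, 93.2 and 95.07 in cry1 cry2 and 188 and 171 in WT (log2 difference -0.51 ± 0.06, adjusted p = 8.89e-08). BTS, a ubiquitin ligase that restrains iron uptake, had 91.5 and 79.7 CPM in hy5 and 69.5 and 71.9 in cry1 cry2 (log2 difference -0.27 ± 0.07, adjusted p = 0.00104). Neither library sizes alone (-0.10, adjusted p = 0.22) nor the data without hy5 replicate 1 (-0.17, adjusted p = 0.0568) kept the BTS call. In the sulfate list 3 of 9 tested members were higher in cry1 cry2 and 1 in hy5 (median log2 difference 0.14), 6 and 0 with library sizes alone. SULTR1;1, a high-affinity sulfate transporter of the root, had 9 and 6 reads in hy5, 39 and 55 reads in cry1 cry2 and 51 and 28 reads in WT (log2 difference 2.67 ± 0.41, adjusted p = 3.06e-06).

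Seed storage genes were covered by few reads outside cry1 cry2. Of 15 seed markers 14 were tested, 10 were higher in cry1 cry2 and 1 in hy5, and the median log2 difference was 3.20, a value that was the same with the genes that had no read in hy5 set at their bound. CRU2 and SESA4 had no read in hy5, and SESA1, SESA2 and SESA3 had 4, 7 and 4 reads over both hy5 libraries, so these genes passed the read filter through cry1 cry2 and the count and median rest in part on that. With at least 5 CPM in 2 libraries 4 members were higher in cry1 cry2 and 1 in hy5, and the median was 2.17. The list summed to 18.5 and 21.9 CPM in hy5, 87.9 and 112 CPM in cry1 cry2 and 17.1 and 18.6 CPM in WT. CRC, a cruciferin, one of the storage globulins laid down in the embryo, had 0.762 and 0.456 CPM in hy5, 14.01 and 23.8 in cry1 cry2 and 0.492 and 1.23 in WT. CRC was above WT in cry1 cry2 and not called against WT in hy5 (log2 difference 4.96 ± 0.29, adjusted p = 8.77e-15). CRA1, another cruciferin, had 3.11 and 3.698 CPM in hy5, 28.96 and 35.03 in cry1 cry2 and 3.58 and 4.65 in WT. CRA1 was above WT in cry1 cry2 and not called against WT in hy5 (log2 difference 3.22 ± 0.14, adjusted p = 4.03e-18). Both cry1 cry2 libraries stood far above the other 4 at both genes, and cry1 cry2 replicate 2 was the higher. CRU2 had 0 and 0 reads in hy5, 1 and 1 reads in WT and 58 and 86 reads in cry1 cry2, at least 49.5-fold higher in cry1 cry2 by the same floor. SESA4, a storage albumin, had 0 and 0 reads, 2 and 1 reads and 20 and 51 reads in the same order, at least 24.4-fold. SESA genes are near-identical neighbours and their single values are uncertain. ABI3, a regulator of seed maturation, went the other way, with 93 and 107 reads in hy5, 65 and 59 reads in cry1 cry2 and 43 and 30 reads in WT. ABI3 was above WT in both mutants and lower in cry1 cry2 than in hy5 (log2 difference -0.65 ± 0.18, adjusted p = 0.0044). That call was lost with DESeq2 (-0.65, adjusted p = 0.0544). The part of remaining seed tissue in these values was not tested.

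The 8 largest differences toward cry1 cry2, among called loci whose mean over the 4 libraries reached 5 CPM, were at PORA and CRC and at 6 genes of other kinds. AT2G34020, a calcium-binding EF-hand protein, had 2.93 and 2.84 CPM in hy5, 58.9 and 62.2 in cry1 cry2 and 7.02 and 7.31 in WT. AT2G34020 was below WT in hy5 and above it in cry1 cry2 (log2 difference 4.39 ± 0.11, adjusted p = 5.55e-24). GRF7, a growth-regulating factor, had 2.81 and 2.08 CPM in hy5, 37.4 and 35.4 in cry1 cry2 and 0.402 and 0.767 in WT. GRF7 was above WT in both mutants and higher in cry1 cry2 than in hy5 (log2 difference 3.91 ± 0.14, adjusted p = 4.54e-20). AT3G18530, an ARM repeat protein, had 4.93 and 4.36 CPM in hy5, 48.4 and 52.8 in cry1 cry2 and 2.28 and 2.86 in WT. AT3G18530 was above WT in both mutants and higher in cry1 cry2 than in hy5 (log2 difference 3.45 ± 0.11, adjusted p = 7.64e-21). AT5G35940, a mannose-binding lectin, had 2.52 and 2.08 CPM in hy5, 24.5 and 25.5 in cry1 cry2 and 7.69 and 7.57 in WT. AT5G35940 was below WT in hy5 and above it in cry1 cry2 (log2 difference 3.45 ± 0.14, adjusted p = 4.7e-19). AT4G11610, a C2-domain protein, had 9.09 and 7.75 CPM in hy5, 79.6 and 86.96 in cry1 cry2 and 7.15 and 7.52 in WT. AT4G11610 was above WT in cry1 cry2 and not called against WT in hy5 (log2 difference 3.31 ± 0.09, adjusted p = 2.05e-22). AT5G44440, a berberine-type FAD-binding enzyme, had 90.2 and 98.03 CPM in hy5, 903 and 892 in cry1 cry2 and 37.4 and 35.7 in WT. AT5G44440 was above WT in both mutants and higher in cry1 cry2 than in hy5 (log2 difference 3.25 ± 0.06, adjusted p = 5.47e-27). Other genes called above WT in cry1 cry2 alone included MYB10, a MYB transcription factor, with 1.52 and 1.57 CPM in hy5 and 9.03 and 11.6 in cry1 cry2 (log2 difference 2.73 ± 0.21, adjusted p = 4.72e-12). AT5G60760 had 6.28 and 5.83 CPM in hy5 and 31.01 and 30.8 in cry1 cry2 (log2 difference 2.36 ± 0.11, adjusted p = 2.15e-17). Genes on opposite sides of WT, above in cry1 cry2, further included GH9B13, a cellulase-family glycosyl hydrolase, with 16.8 and 16.8 CPM in hy5, 95.3 and 104 in cry1 cry2 and 22.04 and 18.1 in WT. GH9B13 was below WT in hy5 and above it in cry1 cry2 (log2 difference 2.57 ± 0.08, adjusted p = 2.21e-21). The acyltransferase-family gene AT2G25150 had 2.405 and 3.19 CPM in hy5, 12.9 and 13.1 in cry1 cry2 and 4.42 and 5.88 in WT. AT2G25150 was below WT in hy5 and above it in cry1 cry2 (adjusted p = 4.97e-12).

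At the other end, 35 loci with at least 1 CPM in hy5 were at under 2% of the hy5 level in cry1 cry2, and 5 were the reverse (CRU2, AT1G75945, BBX23, SESA3 and SESA4). The 35 include CRY2 and its neighbours c-NAD-MDH1 and AT1G04420, the run of adjoining loci described above. CYP71A22, a cytochrome P450, had 219 and 232 reads in hy5, 142 and 129 reads in WT and 0 and 0 reads in cry1 cry2, at least 146-fold lower in cry1 cry2 with 3 reads over both of its libraries as the floor. THI2.2, a thionin, an antimicrobial peptide, had 2511 and 2521 reads in hy5, 0 and 4 reads in cry1 cry2 and 851 and 761 reads in WT, or 0.0819% (95% exact Poisson interval 0.0223% to 0.21%) of the hy5 level. AT2G15020, of unknown function, had 396 and 438 reads, 1 and 0 reads and 524 and 421 reads in the same order. Its cry1 cry2 level was 0.124% (95% exact Poisson interval 0.00313% to 0.688%) of the hy5 level. The TRAF-like gene AT3G28220 had 628 and 746 reads in hy5 and 1 and 2 reads in cry1 cry2, and its near neighbour AT3G28270 had 230 and 275 reads and 0 and 1 reads. NDA1, an alternative NAD(P)H dehydrogenase of mitochondria, had 659 and 694 reads and 7 and 1 reads. THI2.2, AT3G28220 and AT3G28270 were above WT in hy5, while AT2G15020 and NDA1 were not called there.

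Several of these near-absent loci lie close together on chromosome 1, a feature noticed after the values were seen. They are AT1G65490 (from base 24354646), RK1 (from base 24468770), RK2 (a receptor kinase, from base 24472873), AT1G65870, a dirigent-like protein, and AT1G66100, a thionin, which ends at base 24606722. RK2 had 201 and 193 reads in hy5, 1 and 1 reads in cry1 cry2 and 188 and 218 reads in WT, and AT1G65490 had 123 and 151 reads, 0 and 0 reads and 16 and 28 reads. AT1G66100 had 515 and 607 reads, 7 and 5 reads and 411 and 326 reads. RK1 had 33 and 26 reads, 0 and 0 reads and 31 and 24 reads. Other loci in this stretch were not counted.

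Cuticular wax genes were above WT in cry1 cry2 at 7 of 7 tested members (25.6% of all loci) and in hy5 at 6 (22.6%). Directly 5 were higher in cry1 cry2 (20.6% of all loci) and 1 in hy5 (23.2%), 6 and 0 with library sizes alone. CER1, needed for the alkanes of wax, had 26.9 and 25.1 CPM in hy5, 77.1 and 79.2 in cry1 cry2 and 10.6 and 9.05 in WT. CER1 was above WT in both mutants and higher in cry1 cry2 than in hy5 (log2 difference 1.59 ± 0.07, adjusted p = 1.37e-17). CER4, which makes the primary alcohols, had 1.41 and 1.27 CPM in hy5, 6.54 and 7.20 in cry1 cry2 and 3.26 and 3.07 in WT. CER4 was below WT in hy5 and above it in cry1 cry2 (log2 difference 2.36 ± 0.21, adjusted p = 1.29e-10). WSD1, a wax ester synthase, had 2.29 and 1.98 CPM in hy5, 10.8 and 10.5 in cry1 cry2 and 0.402 and 0.102 in WT. WSD1 was above WT in both mutants and higher in cry1 cry2 than in hy5 (log2 difference 2.33 ± 0.20, adjusted p = 5.02e-11). Of 19 cell division genes 7 were higher in cry1 cry2 and 0 in hy5 (15 and 0 with library sizes alone, 3 and 0 with DESeq2). These are 36.8% and 0% of the list, beside 20.6% and 23.2% of all loci tested. MCM2, a subunit of the replicative helicase, had 8.15 and 6.23 CPM in hy5, 13.2 and 11.2 in cry1 cry2 and 11.9 and 13.2 in WT. MCM2 was below WT in hy5 and not called against WT in cry1 cry2 (log2 difference 0.77 ± 0.13, adjusted p = 1.94e-05).

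Among PIF and shade-associated factors 6 of 16 tested members were higher in cry1 cry2 and 5 in hy5 (median log2 difference 0.03), 9 and 2 with library sizes alone. HFR1, an inhibitor of PIF proteins, had 79.5 and 72.8 CPM in hy5, 60.97 and 61.3 in cry1 cry2 and 126 and 132 in WT. HFR1 was below WT in both mutants and lower in cry1 cry2 than in hy5 (log2 difference -0.31 ± 0.06, adjusted p = 0.000102). Library sizes alone ended that call (-0.14, adjusted p = 0.0609). In the salicylate list 3 of 10 tested members were higher in cry1 cry2 and 2 in hy5 (median log2 difference 0.29), 6 and 0 with library sizes alone and 3 and 0 with DESeq2. Of the rapid stress list 0 of 12 tested members were higher in cry1 cry2 and 5 in hy5 (median log2 difference -0.27), 1 and 3 with library sizes alone (median -0.09). Of the dark-inducible list 1 of 6 tested members were higher in cry1 cry2 and 3 in hy5 (median log2 difference -0.10), 2 and 2 with library sizes alone (median 0.08). Of the heat list 1 of 5 tested members were higher in cry1 cry2 and 0 in hy5 (median log2 difference 0.04), 3 and 0 with library sizes alone and 0 and 0 with DESeq2. ZAT10, a stress-induced zinc-finger factor, had 15.8 and 23.6 CPM in hy5 and 6.48 and 6.07 in cry1 cry2 (log2 difference -1.66 ± 0.14, adjusted p = 5.36e-11), with hy5 replicate 2 above replicate 1. Of 88 plastid-encoded genes 32 were higher in hy5 and 8 in cry1 cry2 (17 and 19 with library sizes alone, 13 and 2 with DESeq2). Of 56 tested mitochondrial genes 4 were higher in hy5 and 2 in cry1 cry2, an order that turned with library sizes alone (3 and 4; median 0.13 in place of -0.05), and DESeq2 gave 2 and 0.

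**Figure D5:**
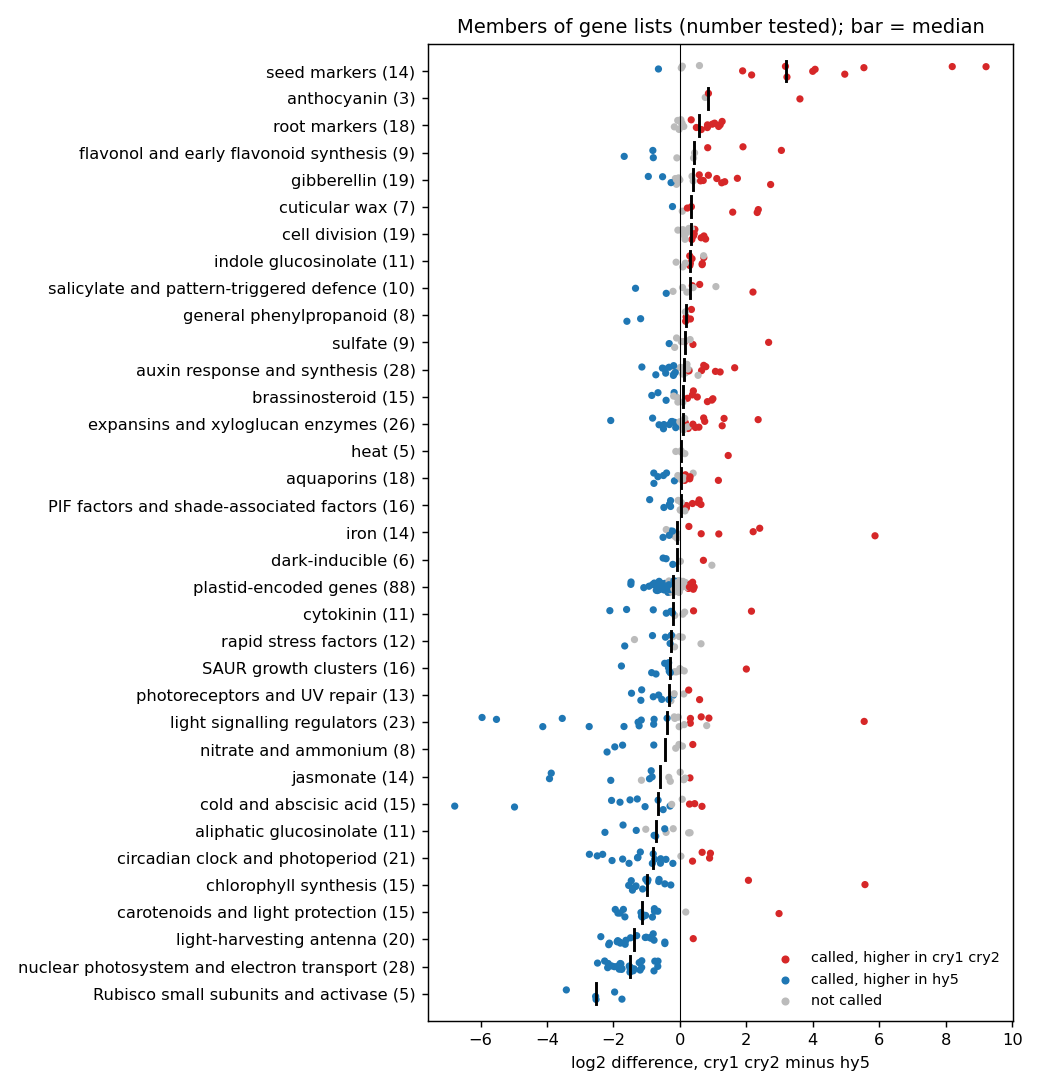
Each point is a tested member of the named list (number tested in brackets), placed by its log2 difference, cry1 cry2 minus hy5, with red called higher in cry1 cry2, blue called higher in hy5 and grey not called; black bars are list medians. Medians run from -2.52 for Rubisco genes, -1.51 for photosystem genes and -1.39 for antenna genes to 3.20 for seed markers, while PIF factors, expansins and aquaporins lie near 0.

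HY5 binds elements with an ACGT core, and the windows before gene starts were counted for such letters. Among loci called and at least 2-fold higher in cry1 cry2, 9.24% of windows held CACGTG and 33.7% held ACGTG, and among those at least 2-fold higher in hy5 the shares were 8.74% and 27.7%, beside 7.39% and 23.9% of all loci tested. Among loci below WT in hy5 alone with a direct difference of at least 2-fold, 10 of 208 windows (4.81%) held CACGTG and 79 of 208 (38%) held ACGTG. At the same size ACGTG was in 24.4% of windows for loci below WT in cry1 cry2 alone, 31.6% for those above WT in cry1 cry2 alone and 33.0% for those above WT in hy5 alone. For loci on opposite sides of WT it was in 33.3% with cry1 cry2 above and 29.5% with cry1 cry2 below, so all 6 of these classes lay above the share of all loci tested. CACGTG was in 8.07% to 11.8% of windows in the other 5 classes. These shares were not tested against each other.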

How the data were processed

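Each deposited table lists the authors' read counts per transcript model and, per the file headers, RPKM values made by the authors, which no test here uses. Per the submitters' processing notes, Bowtie2 2.2.2 and the build TAIR10 were named; not given in the sources used here are the counting tool, whether it used strand and how it placed reads with several matches. Models of a locus may share reads. Deposited counts were summed over the models of each locus (48321 models, 27628 loci, 10690 of them with more than 1 model). Totals ran from 15651218 to 23098347 reads per library over all 8 libraries, and no 2 libraries of a genotype held identical values.

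Loci were kept with the edgeR filter (minimum count 10, minimum total 15), which left 20695. edgeR 4.0.16 in R 4.3.3 fitted all 8 libraries with TMM scaling and 1 mean per genotype, so that WT and agb1 also inform the spread, with 4 residual degrees of freedom. The contrast was cry1 cry2 minus hy5, with the quasi-likelihood F test and Benjamini-Hochberg adjustment over all 20695 loci at 0.05, and the standard error was derived from the F statistic. On simulated counts for the direct comparison, over 20695 genes, the test recovered 38% of 50 genes changed 1.25-fold, 78% of those changed 1.5-fold, 92% of those changed 2-fold and 100% of those changed 4-fold, and 12 of 166 calls were of unchanged genes. Far fewer genes were changed there than the 43.7% of loci called in the data, so these rates need not hold for the data. With so few changed genes the simulation could not show how the split depends on scaling. A count of 3 reads in 1 library corresponds to 0.15 to 0.19 CPM in the 4 libraries; intervals are exact Poisson and cover counting error only.

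The members and the gene lists were chosen with earlier results of these data known, and lists are therefore described by counts and medians without a test of their own. Genes were named by a rule: HY5, HYH, the cryptochromes and the loci beside CRY2; the 8 largest differences each way among called loci with a mean of at least 5 CPM; the 6 largest in each class in which 1 mutant is called or both are called oppositely; up to 4 members of a list by p; and loci with no read in one mutant. Other members of the lists, and the loci close together on chromosome 1, were named after their values were seen. Loci were matched by their identifier to the RefSeq annotation of TAIR10.1, which gave positions and the windows of 250 bases before gene starts; 27420 loci matched. No table of promoters was used, and the windows were read from that genome. No label gives the replicate numbers a shared origin, and they were not taken to pair the libraries: over 13450 genes the deviations of same-numbered libraries correlated at -0.049 for hy5 and cry1 cry2, -0.068 for WT and hy5 and 0.156 for WT and cry1 cry2. The alternatives tried were other scaling, DESeq2 1.42.0, other filters, the most-read model of a locus, fewer libraries in the fit, organelle genes left out, a replicate block and leaving out each library.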

Additional observations from a re-analysis of the deposited data

How the results depend on the processing

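RLE scaling moved no count by over 1.5 times. With library sizes alone 8044 loci were higher in cry1 cry2 and 3159 lower, at least 2-fold 1051 were higher and 997 lower, and the classes held 3534 (above WT in cry1 cry2 alone), 1004 (below in cry1 cry2 alone), 474 (above in hy5 alone), 564 (above in cry1 cry2, below in hy5) and 1870 (above in both). DESeq2 called 6538 loci, 2755 of them higher in cry1 cry2, and the classes held 1018 (above in cry1 cry2 alone), 600 (below in hy5 alone), 108 and 445 (opposite sides, cry1 cry2 above and below), 714 (both above) and 753 (both below). With a filter of at least 5 CPM in 2 libraries 315 loci were at least 2-fold higher, fewer loci being tested. The cause of the other shifts was not tested. Leaving out 1 library at a time gave 7485 to 8899 loci called, 3351 to 4162 higher and 4106 to 4737 lower in cry1 cry2, and at least 2-fold 660 to 689 higher and 1264 to 1293 lower. The classes then ranged over 1115 to 1475 (above in cry1 cry2 alone), 1391 to 1779 (below in cry1 cry2 alone), 557 to 822 (above in hy5 alone), 646 to 917 (below in hy5 alone, 646 without hy5 replicate 2), 131 to 218 (cry1 cry2 above, hy5 below), 465 to 624 (the reverse), 835 to 978 (both above), 848 to 1005 (both below) and 592 to 1632 (neither, 1632 without WT replicate 1 and 1560 without WT replicate 2). With the replicate block 8945 loci were called, 4191 higher and 4754 lower in cry1 cry2, and none of 226 named gene results changed its call; the numbers were not taken to pair the libraries. Of those 226, DESeq2 lost 9 calls, and library sizes alone lost 7 and gained 4. Signs turned only at genes that were not called: AT1G04390 (0.17 with library sizes alone, 0.0124 with the 5 CPM filter, -0.0136 to 0.0087 without 1 library), HSP70 (-0.0314 to 0.103 without 1 library) and HSP90.1 (-0.0197 to 0.092 without 1 library). Below about 1 CPM, as at MYB12, FLS1 and PAP1, few reads limit the precision of single genes.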
